A study of Mus musculus with 8 samples.

Results

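C1qa, C1qb and C1qc, which encode the A, B and C chains of complement component C1q, were described across cultures of mouse peritoneal macrophages. Some cultures received recombinant HRG, the histidine-rich glycoprotein of plasma. The members were taken by symbol: each of the 3 genes had 1 row with that single symbol, out of 19938 genes with a value. They had been chosen by their values at 24 h, where they stood among the largest HRG increases in these same arrays. Their 24 h values are therefore given as a description with no test, and so are their other comparisons that use a 24 h mean.

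Macrophages of wild-type C57/Bl6 mice, collected by washing out the peritoneal cavity and pooled from 10 animals, were kept overnight in RPMI with 5% FCS. They then stayed in that medium while they either received HRG (1 µg/ml) or stayed untreated (basal). There were 4 groups of 2 samples: HRG at 24 h, basal at 24 h, HRG at 6 h and basal at 6 h. Each sample was measured on 1 Affymetrix array and is given as an RMA value, a background-corrected, normalised probe summary on a log2 scale, so that a difference of 1 is a doubling. All samples shared the genotype, the pool and the medium. Nothing says how far the replicates of a group were handled apart, so a p-value here reflects the scatter of these samples alone, and that scatter may be technical.

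C1q is the recognition part of the first complement component. Its A, B and C chains each carry a collagen-like stalk and a globular head, and they assemble into a bundle that binds antibody complexes, apoptotic cells and other targets. Bound C1q activates the proteases C1r and C1s, which cleave C4 and C2. Unlike most complement proteins, which come from the liver, C1q is made largely by macrophages and dendritic cells, and C1q on dying cells aids their uptake.

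The genes lie side by side on chromosome 4 in the RefSeq annotation of GRCm38.p6: C1qb at 136880126 to 136886200, C1qc at 136889801 to 136892936 and C1qa at 136895916 to 136898844. RefSeq promoter windows, from 250 bases before to 50 bases after a start site, matched 2 of the 3 genes, C1qb (chr4:136886151-136886450, minus strand) and C1qc (chr4:136892865-136893164, minus strand). The start site of the C1qb window is the annotated gene start, and that of the C1qc window, base 136892914, lies 22 bases inside the gene. Both windows are shown because both genes were among the largest HRG increases at 24 h, by which they had been chosen. Capitals mark the matches described below, on either strand.
C1qb: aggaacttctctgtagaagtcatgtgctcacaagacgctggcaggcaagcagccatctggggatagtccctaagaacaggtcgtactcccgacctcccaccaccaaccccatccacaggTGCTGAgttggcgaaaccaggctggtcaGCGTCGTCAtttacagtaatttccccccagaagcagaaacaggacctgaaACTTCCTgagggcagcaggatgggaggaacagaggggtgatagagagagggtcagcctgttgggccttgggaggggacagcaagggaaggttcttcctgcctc
C1qc: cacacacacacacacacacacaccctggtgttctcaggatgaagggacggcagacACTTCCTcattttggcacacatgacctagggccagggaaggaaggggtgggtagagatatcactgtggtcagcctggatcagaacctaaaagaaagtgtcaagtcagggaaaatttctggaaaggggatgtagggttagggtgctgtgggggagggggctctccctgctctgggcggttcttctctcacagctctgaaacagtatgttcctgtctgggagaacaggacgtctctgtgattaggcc

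The letters AGGAAGT, a core of the kind bound by PU.1 and other ETS factors of macrophages, were found on the opposite strand in both windows, at bases 53 to 47 before the start site of the C1qb window and 195 to 189 before that of the C1qc window. This heptamer occurs in 9.35% of the 32851 promoter windows of the table. TGCTGA, a half-site of MAF factors, was found in the C1qb window at bases 131 to 126 before the start and occurs in 19.5% of windows. TGACNNNGC, the antioxidant response element bound by NRF2, was found on the opposite strand of the C1qb window at bases 103 to 95 before the start and occurs in 12.4% of windows. An interferon-stimulated response element and the letters CACGTG (E-box) and TTGCNNAA (C/EBP) were in neither window, against 3.44%, 7.15% and 10.8% of all windows. None of the matches overlapped another. The motifs were chosen after the sequences had been seen, and a match describes the letters only.

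Of 16 macrophage markers measured, 14 lay above the median of all genes, as did 13 of 14 markers of large resident peritoneal macrophages and 9 of 14 of small and monocyte-derived ones. So did 13 of 15 B cell markers and 9 of 10 mast cell markers, and 5 of 17 T and NK cell, 5 of 13 mesothelial and fibroblast, 1 of 12 dendritic cell and 1 of 11 neutrophil and eosinophil markers. These counts describe the brightness of different probes, which also depends on the probe, and give no cell shares. RMA values have no zero, so no marker is listed at 0. Replicate arrays correlated at r = 0.996 to 0.9976 across the 28853 rows, which are not independent. In such bulk RNA, more C1q RNA per cell and a larger share of C1q-producing cells cannot be told apart.

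All 3 chains were highest with HRG at 24 h. C1qc had values of 12.74 and 12.59 in HRG samples at 24 h, against 10.70 and 9.92 in basal samples at 24 h. C1qa had 12.47 and 12.45 in HRG samples, against 10.92 and 10.27 in basal samples at that time. C1qb had 13.36 and 13.20 in HRG samples, against 11.83 and 11.40 in basal samples. For each chain both HRG samples lay above both basal samples, and the basal samples were farther apart than the HRG samples.

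In means, C1qc stood at 12.67 ± 0.10 with HRG and 10.31 ± 0.55 in basal samples at 24 h (SD, n = 2 each), a difference of 2.36 ± 0.19 (SE of the limma fit) or 5.15-fold. C1qa stood at 12.46 ± 0.010 and 10.59 ± 0.46, 1.87 ± 0.16 higher with HRG or 3.65-fold. C1qb stood at 13.28 ± 0.12 and 11.62 ± 0.31, 1.66 ± 0.13 higher or 3.16-fold. Among 19938 genes ordered by this difference, C1qc, C1qa and C1qb were in places 1, 4 and 6, which is how they came to be chosen. Over all genes 2.43% were called higher and 1.05% lower at 24 h (adjusted p under 0.05), and 19.1% of genes had both HRG arrays above both basal arrays. The difference was 0.49 larger for C1qc than for C1qa and 0.70 larger than for C1qb, sizes that compare differences and not levels.

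Taken over the 4 pairings of an HRG sample with a basal sample at 24 h, the ratio lay between 3.73 and 7.10 for C1qc, between 2.90 and 4.60 for C1qa and between 2.57 and 3.89 for C1qb. Most of that width came from the basal samples. Basal replicate 1 exceeded basal replicate 2 at 24 h by 0.78 for C1qc, 0.65 for C1qa and 0.43 for C1qb. Those gaps were larger than the gap of 99.8%, 99.6% and 97.6% of all genes between the same 2 arrays, whose median absolute difference was 0.11. In the other 3 groups the 2 arrays differed by -0.11 to 0.17 (replicate 1 minus replicate 2) in these genes. The HRG difference at 24 h was 2.75 for C1qc, 2.19 for C1qa and 1.88 for C1qb without basal replicate 1, and 1.97, 1.54 and 1.44 without basal replicate 2.

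**Figure D1:**
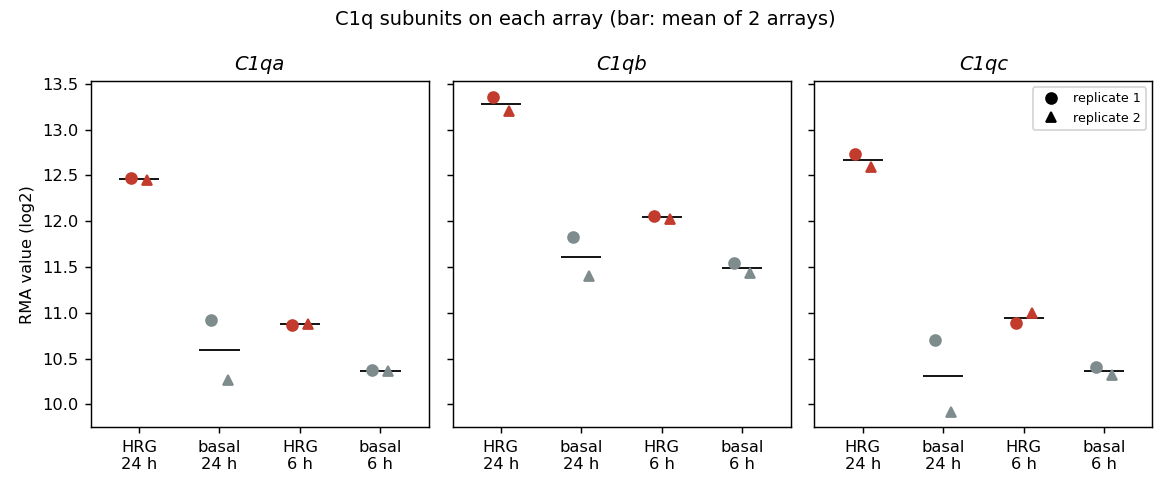
RMA values (log2) of C1qa, C1qb and C1qc on each of the 8 arrays, with circles for replicate 1, triangles for replicate 2 and bars for the mean of 2 arrays. HRG samples at 24 h lie above all others, HRG samples at 6 h lie above basal samples at 6 h, and the 2 basal samples at 24 h stand apart from each other.

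**Figure D2:**
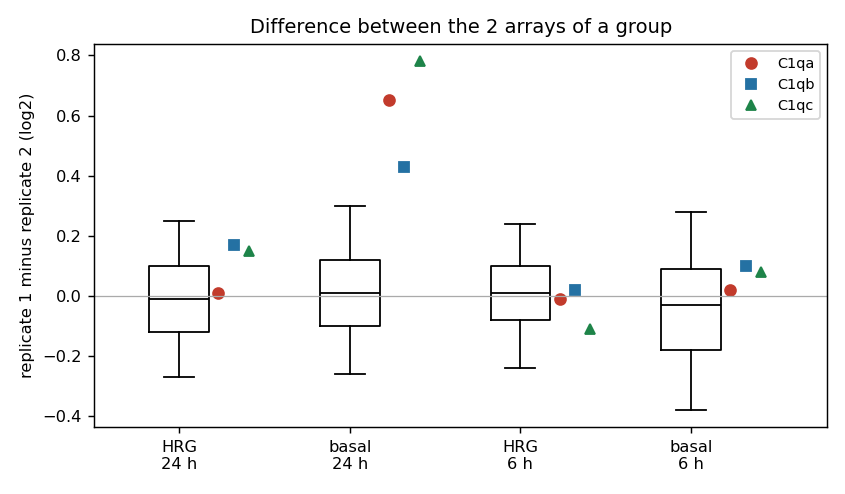
Difference between replicate 1 and replicate 2 (log2) in each group, with symbols for the C1q genes beside boxes for 19938 genes (median, quartiles, whiskers at the 5th and 95th percentile). In basal samples at 24 h the C1q genes differ by 0.43 to 0.78, above the upper whisker at 0.30, and in the other groups all 3 lie within the whiskers.

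The means compared at 6 h come from other arrays than the 24 h values by which the genes were chosen. Still, earlier results of these data were known when the members were chosen, so the 6 h test is not independent of that choice. The spread in the test is also pooled over all 8 arrays, those of 24 h included. All 3 chains were again higher with HRG in every sample, by sizes close to each other, but none passed the threshold of an adjusted p of 0.05. C1qc had values of 10.89 and 11.00 in HRG samples and 10.41 and 10.32 in basal samples at 6 h. C1qb had 12.06 and 12.03 in HRG samples and 11.54 and 11.43 in basal samples. C1qa had 10.87 and 10.88 in HRG samples and 10.37 and 10.36 in basal samples. The groups did not overlap for any of the chains, and the gap between the lowest HRG sample and the highest basal sample was 0.49 for C1qc, 0.50 for C1qb and 0.50 for C1qa.

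C1qc was 0.58 ± 0.19 higher with HRG at 6 h (1.5-fold, 95% interval 0.17 to 0.99, adjusted p = 0.22, limma with Benjamini-Hochberg adjustment over all genes). C1qb was 0.56 ± 0.13 higher (1.47-fold, 95% interval 0.27 to 0.85, adjusted p = 0.075), and C1qa 0.51 ± 0.16 higher (1.42-fold, 95% interval 0.16 to 0.86, adjusted p = 0.20). Their unadjusted p-values were 0.0095, 0.0012 and 0.0080. At this threshold 0.431% of genes were called higher and 0.818% lower at 6 h, and 20% of genes had both HRG arrays above both basal arrays, so separation of the 2 groups by itself is common. The intervals are not adjusted for the number of genes, so that each leaves out a difference of 0 only restates the unadjusted p-values.

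All groups share 1 estimate of the spread, and the residual part of it was mostly that of the basal samples at 24 h. The residual SD was 0.23 for C1qa, 0.17 for C1qb and 0.28 for C1qc over the 4 groups, against 0.011, 0.081 and 0.081 over the other 3 groups. The tests used the SD after eBayes had moderated it with the spread of all genes, 0.16, 0.13 and 0.19. Without either basal sample at 24 h, the 6 h differences were unchanged. Leaving out such a sample removes the widest replicate gap of these genes, so the smaller spread that follows is no evidence. Leaving out other single arrays in turn kept the 6 h differences between 0.50 and 0.63. With only the 4 arrays of 6 h in the fit, adjusted p was 0.056 for C1qa, 0.047 for C1qb and 0.044 for C1qc. With the replicate number as a block it was 0.036 for C1qb. These refits stand beside the main fit, in which none of the 3 chains passed.

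Over the time in culture, the chains differed mainly where HRG was present. In HRG samples the 24 h mean exceeded the 6 h mean by 1.72 ± 0.19 for C1qc (3.30-fold), 1.58 ± 0.16 for C1qa (3-fold) and 1.23 ± 0.13 for C1qb (2.35-fold). In basal samples 24 h minus 6 h was -0.06 ± 0.19 for C1qc, 0.23 ± 0.16 for C1qa and 0.13 ± 0.13 for C1qb. The basal samples at 24 h spanned those at 6 h in each case, with 10.92 and 10.27 at 24 h against 10.37 and 10.36 at 6 h for C1qa. The HRG difference was larger at 24 h than at 6 h by 1.78 ± 0.27 for C1qc, 1.36 ± 0.23 for C1qa and 1.10 ± 0.19 for C1qb. By the test of that difference, 1.02% of all genes had a larger and 0.451% a smaller HRG effect at 24 h.

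The order of the 4 groups was thus HRG at 24 h, then HRG at 6 h, then both basal groups. HRG samples at 24 h stood clear of all others for each chain. HRG samples at 6 h lay above both basal samples at 24 h for C1qb and C1qc, but not for C1qa, where basal replicate 1 at 24 h (10.92) was above HRG at 6 h (10.87 and 10.88). The basal groups at 24 h and 6 h overlapped for all 3 chains.

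The chains followed each other closely. Pearson's r over the 8 arrays was 0.994 for C1qb with C1qc, 0.993 for C1qa with C1qb and 0.990 for C1qa with C1qc, over arrays that fall into groups, as a description. The nearest measured genes on either side are given with their own values. Epha8 and Zbtb40, the nearest measured genes beyond C1qa, differed by -0.02 ± 0.12 and -0.11 ± 0.092 at 24 h and by -0.05 ± 0.12 and -0.02 ± 0.092 at 6 h. Lactbl1 and Tex46, the nearest measured genes beyond C1qb, differed by -0.03 ± 0.12 and -0.04 ± 0.15 at 24 h and by -0.03 ± 0.12 and 0.11 ± 0.15 at 6 h. None of these 4 neighbours passed at either time.

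Of 16 other measured genes of the classical and lectin initiation list, 1 rose and 0 fell at 24 h and none passed at 6 h. This list is not limited to partners of C1q, since it also holds genes of the lectin pathway and regulators. Over all genes 2.43% rose and 1.05% fell at 24 h and 0.431% rose and 0.818% fell at 6 h, so 1 of 16 is no result about the list. The list's median difference was 0.069 at 24 h and 0.065 at 6 h, beside -0.019 and 0.019 over all genes. The one that rose was C1s1, which encodes the C1s protease: it had 5.63 and 5.74 in HRG samples and 5.10 and 5.05 in basal samples at 24 h, 0.61 ± 0.093 higher (adjusted p = 0.0035). All 8 values of C1s1 were below the lower quartile of the array, which lay between 5.85 and 6.00. C1ra, the C1r protease, was 0.37 ± 0.12 higher at 24 h (adjusted p = 0.16), C2 0.44 ± 0.12 (adjusted p = 0.068), C4a 0.33 ± 0.093 (adjusted p = 0.091) and C4b 0.28 ± 0.093 (adjusted p = 0.17). Serping1, the inhibitor of C1r and C1s, differed by 0.10 ± 0.12 at 24 h, and the ficolin Fcna by 0.16 ± 0.10. By unadjusted p under 0.05 in the limma fit, 5 of the 16 were higher and 0 lower at 24 h, and 0 differed at 6 h, where 7.48% of all genes were higher and 5.22% lower at 24 h and 4.73% higher and 6.27% lower at 6 h. C4a and C4b are near-identical copies, whose probes may read both.

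Further down the cascade, 0 of 12 measured genes of the alternative pathway and the terminal components rose or fell at either time, beside 2.43% and 1.05% of all genes at 24 h, so a count of 0 is no result about these genes. Cfb, factor B, stood at 13.40 with HRG and 13.28 in basal samples at 24 h. Cfp, properdin, stood at 13.20 with HRG and 12.86 in basal samples, a difference of 0.34 ± 0.092 (adjusted p = 0.075). By unadjusted p under 0.05 in the limma fit, Cfp was the 1 gene of these 12 higher at 24 h, beside 7.48% of all genes, and 0 differed at 6 h.

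Among complement receptors and membrane regulators, 5 of 14 rose and 0 fell at 24 h, and 1 rose and 0 fell at 6 h, beside 2.43% of all genes called higher at 24 h and 0.431% at 6 h. The medians were 0.35 and 0.097, and 3 to 6 rose at 24 h when single arrays were left out, 3 without HRG replicate 1 or basal replicate 2 at 24 h. Vsig4, a receptor for C3 fragments, had 11.09 and 11.03 in HRG samples and 9.10 and 8.81 in basal samples at 24 h, and 9.33 and 9.76 in HRG samples and 8.90 and 8.61 in basal samples at 6 h. It rose by 2.10 ± 0.15 at 24 h (adjusted p = 4.5e-05) and by 0.79 ± 0.15 at 6 h (adjusted p = 0.028). Itgax, the CD11c subunit of complement receptor 4, rose by 1.00 ± 0.11 at 24 h, and C5ar1 and C5ar2, receptors for C5a, rose by 0.73 ± 0.10 and 0.61 ± 0.11. Cd55, which speeds the decay of C3 convertases, rose by 0.79 ± 0.14. C3ar1, the C3a receptor, differed by 0.18 at 24 h (adjusted p = 0.46). The 6 h call of Vsig4 was lost without HRG replicate 2 or basal replicate 2 at 6 h and without either HRG sample at 24 h, and the 24 h calls of C5ar2 and Cd55 without HRG replicate 1 or basal replicate 2 at 24 h.

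**Figure D3:**
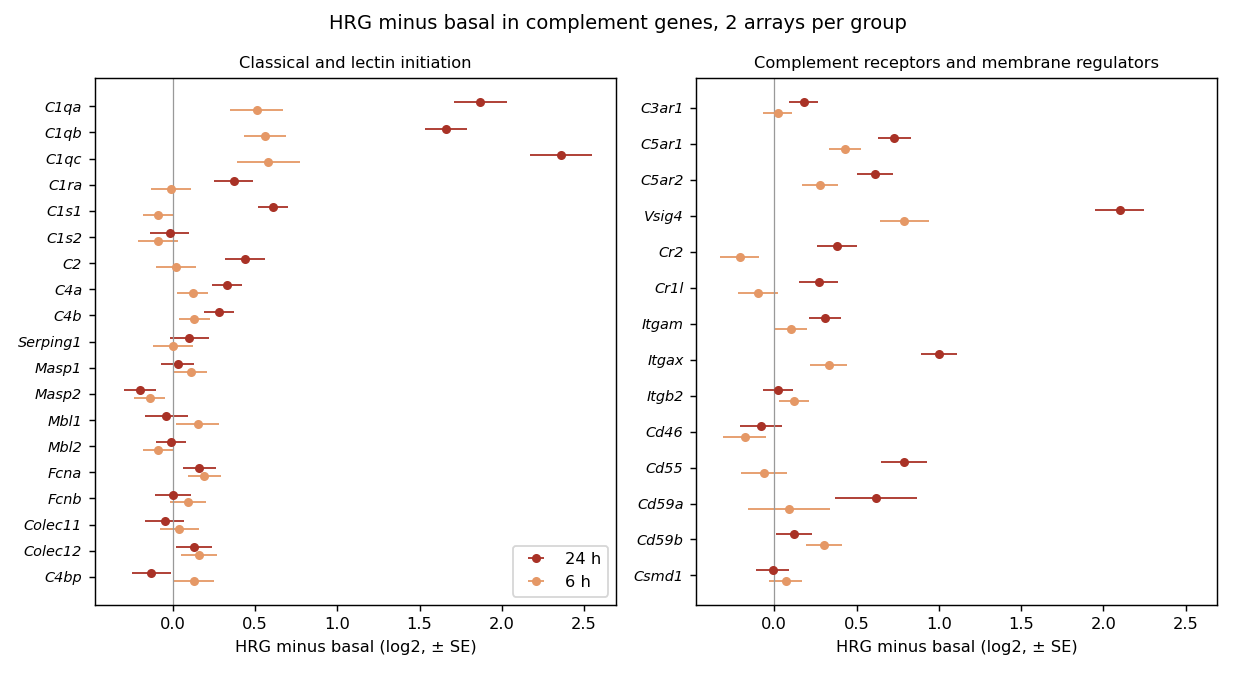
HRG minus basal (log2, points with SE, 2 arrays per group) at 24 h and 6 h for genes of the initiation list, the C1q chains on top, and for complement receptors and regulators. The C1q chains lie at 1.66 to 2.36 at 24 h and 0.51 to 0.58 at 6 h, Vsig4 lies at 2.10 and 0.79, and the other initiation genes lie between -0.20 and 0.61 at 24 h.

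Of 16 proteins that bind C1q or have been proposed as its receptors, 2 rose and 0 fell at 24 h and none passed at 6 h, with medians of 0.062 and 0.0020, beside 2.43% of all genes called higher at 24 h. None rose at 24 h without HRG replicate 1 of that time, and 1 without either basal sample. By unadjusted p under 0.05 in the limma fit, 5 were higher and 1 lower at 24 h, and 0 were higher and 1 lower at 6 h, beside 7.48% and 5.22% of all genes at 24 h and 4.73% and 6.27% at 6 h. Cd93, a membrane protein once taken for a C1q receptor, rose by 0.61 ± 0.11 at 24 h (adjusted p = 0.0080), and Bgn, the matrix proteoglycan biglycan, by 0.89 ± 0.20 (adjusted p = 0.026). The Cd93 call was lost without HRG replicate 1 or basal replicate 2 at 24 h, and that of Bgn without HRG replicate 1 or basal replicate 1 at 24 h. Calr, calreticulin, differed by 0.06 ± 0.096, Lrp1 by -0.03 ± 0.091 and C1qbp by -0.21 ± 0.11 at 24 h, and none of them passed.

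Of 25 measured genes outside C1q whose proteins carry a related globular domain, 0 passed at 24 h, beside 2.43% of all genes called higher. Their differences lay there between -0.26 and 0.17, and none had an unadjusted p under 0.05 there in the limma fit. At 6 h 1 rose, beside 0.431% of all genes. That was Emilin1, an elastic fibre protein, at 0.66 ± 0.11 (adjusted p = 0.017), a call lost without either HRG sample or basal replicate 1 at 6 h.

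Of 18 measured transcription factors known or proposed to act on C1q genes, 4 rose and 0 fell at 24 h and 1 rose at 6 h, with medians of 0.053 and 0.012, beside 2.43% of all genes called higher at 24 h and 0.431% at 6 h. Between 1 and 4 rose at 24 h when single arrays were left out, and 1 without either HRG sample or basal replicate 2 at 24 h, or 2 without either HRG sample at 6 h. Maf, a bZIP factor of macrophages, had 11.16 and 10.82 in HRG samples and 9.74 and 9.91 in basal samples at 24 h, and 10.99 and 11.08 in HRG samples and 10.60 and 10.60 in basal samples at 6 h. It rose by 1.17 ± 0.12 at 24 h (adjusted p = 0.00025) and was 0.44 ± 0.12 higher at 6 h (adjusted p = 0.13). Maf was lower at 24 h than at 6 h in basal samples, by -0.77 ± 0.12 (adjusted p = 0.0015, where 5.48% of genes were called lower), and differed by -0.04 ± 0.12 in HRG samples. Nr1h3, the nuclear receptor LXRα, rose by 0.52 ± 0.11, Irf7 by 0.54 ± 0.12 and Irf1 by 0.41 ± 0.10 at 24 h. From 6 h to 24 h, Nr1h3 went from 9.83 to 9.15 with HRG and from 9.67 to 8.63 in basal samples. Irf7 went from 13.16 to 12.89 with HRG and from 13.05 to 12.35 in basal samples. Irf1 went from 10.15 to 10.49 with HRG and from 10.46 to 10.08 in basal samples. These 3 calls were each lost without 4 or 5 single arrays. Cebpa rose by 0.71 ± 0.10 at 6 h (adjusted p = 0.0083), a call lost without either HRG sample at 6 h, and differed by -0.05 ± 0.10 at 24 h. Spi1, which encodes PU.1, differed by 0.24 ± 0.10 at 24 h (adjusted p = 0.33). By unadjusted p under 0.05 in the limma fit, 7 of the 18 factors were higher and 3 lower at 24 h. Over all genes 7.48% were higher and 5.22% lower.

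Genes with a profile most like the mean of the C1q chains were sought among 441 genes whose highest and lowest group means differed by at least 1. By Pearson's r over the 8 arrays, the closest were Rgs2 (0.988), a regulator of G protein signalling, Vsig4 (0.984), the chemokine Cxcl14 (0.984), the actin-binding Aif1 (0.981), the vitamin D receptor Vdr (0.981), the inflammasome adaptor Pycard (0.975), the mannose receptor Mrc1 (0.975) and the clotting factor subunit F13a1 (0.972). The most opposed were the glycine transporter Slc6a9 (-0.987), Ppfibp2 (-0.957), the tRNA synthetase Eprs (-0.925) and the reductase Ptgr1 (-0.914). These r values are a description over 4 groups of 2 arrays.

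Some of these genes shared the gap between the basal samples at 24 h, which the ranking itself favours. Basal replicate 1 was above replicate 2 in 8 of the 8 most alike genes, by 0.55 for Pycard, 0.51 for F13a1 and 0.43 for Vdr, and below it in 4 of the 4 most opposed, by -0.53 for Slc6a9. At 6 h, Cxcl14 rose with HRG by 0.56 ± 0.10 (adjusted p = 0.028), a call lost in 6 of the 8 fits that leave out 1 array. Rgs2 was 0.35 ± 0.11 higher at 6 h (adjusted p = 0.18) and F13a1 0.60 ± 0.15 (adjusted p = 0.097).

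**Figure D4:**
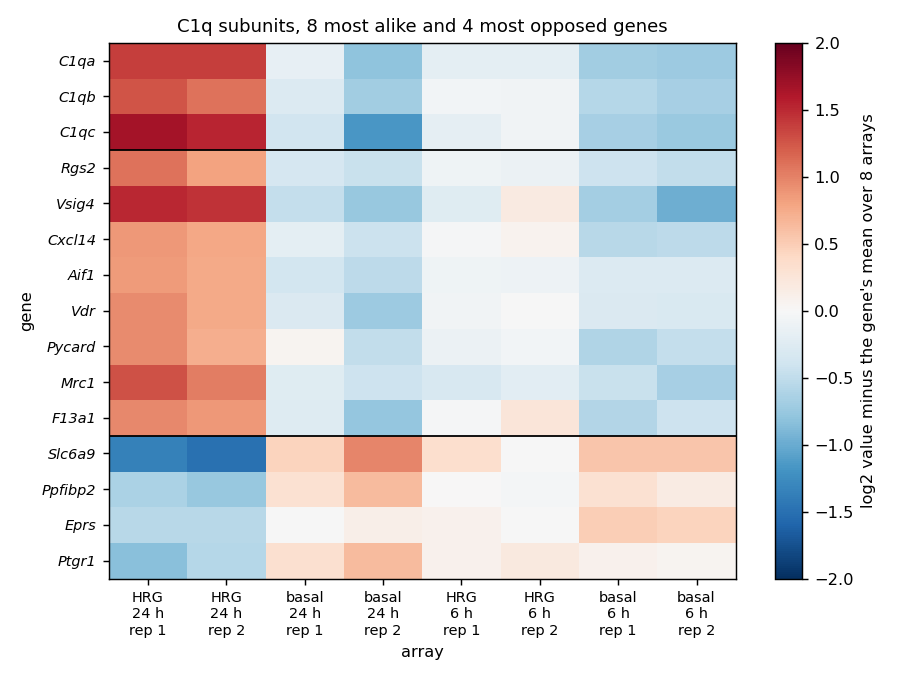
Log2 values minus each gene's mean over 8 arrays (colour scale) for the C1q chains, the 8 most alike genes and the 4 most opposed, with 1 column per array. HRG samples at 24 h are the highest columns for the alike genes, such as C1qc at 1.67 and 1.52, and the lowest for the opposed genes, such as Slc6a9 at -1.35 and -1.50.

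Markers of other cells were higher with HRG at 24 h as well, with counts that depend on single arrays. Beside 2.43% of all genes called higher, 9 of 15 B cell markers rose and 0 fell at 24 h, but 1 without HRG replicate 1 and 2 without basal replicate 2 of that time, and 12 without basal replicate 1. Their summed level (log2) was 13.18 to 13.34 in HRG samples and 12.54 to 12.70 in basal samples. Of mast cell markers, 5 of 10 rose, but 1 without HRG replicate 1 and 2 without basal replicate 1 at 24 h, with sums of 13.15 to 13.46 in HRG samples and 12.64 to 12.97 in basal samples. Of markers of small and monocyte-derived peritoneal macrophages, among them major histocompatibility complex class II genes, 8 of 14 rose, but 4 without HRG replicate 1 and 5 without basal replicate 2 at 24 h, with sums of 13.69 to 13.79 in HRG samples and 12.61 to 12.97 in basal samples. Of macrophage markers, 4 of 16 rose at 24 h and 3 or 4 without single arrays, with sums of 16.78 in both HRG samples and 16.60 in both basal samples. At an unadjusted p under 0.05 (limma), 15 of 15 B cell and 8 of 10 mast cell markers were higher with HRG at 24 h. So were 11 of 14 small macrophage and 8 of 16 macrophage markers, and 0 were lower in any of these lists. Over all genes 7.48% were higher and 5.22% lower. In basal samples, 13 of 15 B cell markers fell from 6 h to 24 h, beside 5.48% of all genes. So did 8 of 14 small macrophage and 5 of 10 mast cell markers, and 0 rose in any of these lists. In HRG samples over that time, 1 B cell, 2 small macrophage and 3 mast cell markers rose, and 1, 3 and 1 fell. Of 19938 genes 880 rose and 572 fell there. Of 16 macrophage markers 2 rose and 1 fell in basal samples, where 758 of 19938 genes rose and 1093 fell. In HRG samples 8 of the 16 rose and 0 fell. The part of these markers in the C1q difference was not tested.

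At 6 h 1 of 15 B cell markers fell and 0 of 10 mast cell markers passed, beside 0.818% of all genes called lower, and the B cell call was lost without any 1 of the 4 samples at 6 h or either HRG sample at 24 h. The summed B cell level was 13.19 to 13.20 in HRG samples and 13.42 to 13.48 in basal samples. The mast cell level was 13.15 to 13.26 in HRG samples and 13.27 to 13.36 in basal samples. By unadjusted p under 0.05 in the limma fit, 9 of 15 B cell markers were lower and 1 higher at 6 h. Of 17 T and NK cell markers 7 were lower and 0 higher, beside 6.27% and 4.73% of all genes. The summed T and NK cell level at 6 h was 11.98 to 12.02 in HRG samples and 12.43 to 12.48 in basal samples. The small macrophage markers had 13.72 to 13.75 in HRG samples and 13.69 to 13.75 in basal samples at 6 h, and 0 of 14 passed. Dendritic cells also make C1q: 1 of 12 of their markers rose at 24 h (0 without HRG replicate 1 or basal replicate 2 and 3 without HRG replicate 2 of that time), and 0 rose and 2 fell at 6 h (0 or 1 without any 1 sample at 6 h). Of large resident macrophage markers, which include Vsig4, 5 of 14 rose and 1 fell at 24 h, beside 2.43% and 1.05% of all genes, and 2 rose and 1 fell at 6 h, beside 0.431% and 0.818%. Without HRG replicate 1 at 24 h, 1 rose and 0 fell at that time, and 2 or 3 rose without any other 1 of the 24 h samples. Without HRG replicate 2 at 6 h none passed at 6 h. Of T and NK cell markers, 0 of 17 passed at 24 h (3 rose without basal replicate 1) and 2 fell at 6 h (0 without HRG replicate 1 at 6 h, among others). None of 11 neutrophil and eosinophil markers and none of 13 mesothelial and fibroblast markers passed at either time. By unadjusted p under 0.05 in the limma fit, 1 of the 11 was lower at 24 h, and 2 of the 13 were higher and 1 lower. Over all genes 7.48% were higher and 5.22% lower at 24 h, so counts this small are no result about these lists.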

How the data were processed

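RNA of 8 samples was hybridised to Affymetrix arrays. The authors deposited log2 values made with Expression Console and RMA, per the submitters' processing notes. The sources used here give neither versions nor a build. RMA gives all arrays nearly the same distribution, so a shift of all genes would not show.

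Of 28853 rows, 21789 had 1 gene symbol in the platform annotation, and the row with the highest mean stood for each of 19938 genes. Group means were fitted with limma 3.58.1 in R 4.3.3 (lmFit, contrasts.fit and eBayes, two-sided, 4 residual and 7.81 prior degrees of freedom). The Benjamini-Hochberg adjustment covered all genes, with a threshold of 0.05, and "rose" and "fell" refer to it. Errors of differences are standard errors, and those of levels are SDs of 2 arrays. The number of arrays limits the precision.

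The members, lists and tests were chosen with earlier results of these data known. Of 241 list entries, 226 were measured. Named are the C1q chains, members of the complement and factor lists, neighbouring genes and the genes most alike. Alternatives were the replicate block, trend and robust options of eBayes, a new quantile normalization, centring on medians, dropping the dimmest 30% of genes, the mean of all rows per gene, requiring a fold of 1.5, fits of 4 arrays and leaving out each array. Leaving out arrays for the cell marker lists was added after seeing the data.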

Additional observations from a re-analysis of the deposited data

Results flagged for a closer look

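Among 101 measured genes of the complement and factor lists outside C1q, 5 had an HRG effect that differed between 24 h and 6 h by the test of the difference itself (limma, adjusted over all genes). By contrast with 1.02% of all genes called larger and 0.451% called smaller at 24 h, the effect was larger at 24 h for Vsig4 by 1.31 ± 0.21 (adjusted p = 0.013), for Cd93 by 0.72 ± 0.15 (adjusted p = 0.041), for Irf1 by 0.72 ± 0.14 (adjusted p = 0.030) and for C1s1 by 0.70 ± 0.13 (adjusted p = 0.025). For Cebpa the effect at 24 h minus that at 6 h was -0.76 ± 0.15 (adjusted p = 0.027). All values of C1s1 were below the lower quartile of the array. The 24 h calls of Cd93 and Irf1 and the 6 h calls of Cebpa and Vsig4 were lost without some single arrays, as given above.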

How the results depend on the processing

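The 6 h differences of the C1q chains kept their direction under all alternatives run. In fits that kept both arrays of a group, C1qb (0.56) passed with the replicate block (adjusted p = 0.036) and with trend and robust eBayes (0.014). In the fit of 4 arrays, C1qb (adjusted p = 0.047) and C1qc (0.58, adjusted p = 0.044) passed. The titles number the replicates, but nothing says that a number pairs samples, and replicate differences correlated between groups at -0.33 to 0.41, so the block stands only beside calls it changed. Leaving out single arrays gave 6 h differences of 0.50 to 0.52 for C1qa, 0.51 to 0.61 for C1qb and 0.53 to 0.63 for C1qc, with adjusted p from 0.020 to 0.70. The 24 h differences then ran from 1.54 to 2.19, 1.44 to 1.88 and 1.97 to 2.75 for C1qa, C1qb and C1qc. The excess of the 24 h over the 6 h effect ran from 1.03 to 1.68, 0.88 to 1.32 and 1.39 to 2.17. In basal samples 24 h minus 6 h ran from -0.10 to 0.55, -0.08 to 0.35 and -0.45 to 0.33, so it had no settled sign.

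Counts over all genes moved more. At 6 h, 86 genes were called higher and 163 lower. Trend and robust eBayes gave 180 and 312, a new quantile normalization 164 higher, 4 arrays 97 lower, a minimum fold of 1.5 left 50 and 83, and single arrays left out gave 10 to 103 and 11 to 184. At 24 h the counts were 485 and 209, with 269 and 125 at the minimum fold and 110 to 536 and 72 to 252 without single arrays. For 24 h against 6 h in HRG samples they were 880 and 572. The minimum fold left 367 and 221, quantile normalization gave 876 lower and 4 arrays 911 lower, and single arrays left out gave 390 to 985 and 139 to 695. For basal samples they were 758 and 1093, with 297 and 544 at the minimum fold and 373 to 684 and 600 to 1133 without single arrays. For the difference between the effects they were 204 and 90, with 392 and 155 under trend and robust eBayes and 28 to 265 and 28 to 139 without single arrays. Apart from fits with fewer arrays or a fold limit, the cause was not tested.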
